A study of Mus musculus with 29 samples.

Results

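The genes described here are those whose products mark fat cells, read in RNA from mouse lung. The set named 9 genes, the secreted factors Adipoq, Cfd, Retn and Lep, the lipid droplet proteins Plin1, Plin4 and Cidec, the fatty acid carrier Fabp4 and the enzyme gene Pck1. Each gene's probes were found by matching the accession printed for the probe to RefSeq. This gave 11 of the 41174 probes of the array design and 8 of the 9 genes, since no probe was matched to Pck1, which was not analysed here. A gene with several probes was read from the probe with the highest mean signal, and that probe was well above background on all 29 arrays for 7 of the 8 genes.

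The series used C57BL/6 mice aged 6 to 8 weeks, either Klf15-/- (KO) or wild type (WT), which received dexamethasone at 2.5 mg/kg or saline, and took whole lung at 4 or 8 h. Klf15 encodes a transcription factor that glucocorticoid hormone induces, and dexamethasone is a synthetic glucocorticoid. The groups at 4 h were KO with dexamethasone (4 arrays), KO with saline (3), WT with dexamethasone (4) and WT with saline (4). The groups at 8 h were KO with dexamethasone (4), KO with saline (4), WT with dexamethasone (3) and WT with saline (3). The labels number each array's RNA separately from 33 to 64 and do not say that each came from a different animal, so p-values measure the spread between these samples.

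Fat cells store triglyceride in a lipid droplet whose surface carries perilipins. Perilipin 1, from Plin1, restrains lipolysis until hormones release it, perilipin 4, from Plin4, coats droplets in fat cells and muscle, and Cidec protein moves lipid between droplets so that they enlarge. Fat cells also secrete adiponectin (Adipoq), leptin (Lep), resistin (Retn) and adipsin, the complement protease factor D (Cfd). Fabp4 protein carries fatty acids in fat cells and is also made by capillary endothelial cells and macrophages, both of which lung holds. Glucocorticoids act on fat cells and on many lung cells through the same receptor. Heart, thymus and the brown and white fat of the chest lie next to the lung.

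The levels are log2 signals over the 75th percentile of the array's probe signals, so that 0 is that percentile and a difference of 1 is a doubling. Between 75.5% and 88.5% of an array's spots were well above background, and arrays of 1 group correlated at 0.971 to 0.992 over genes. Klf15 itself was lower in KO than in WT lungs by 2.96 (adjusted p = 2.45e-15), with 1.33 ± 0.13 (SD, n = 4) in KO and 4.27 ± 0.08 (SD, n = 4) in WT lungs after 4 h of dexamethasone, and within each treatment and time no KO array reached a WT array. The labelled tissue was checked on 10 genes of lung epithelium, among them the surfactant genes Sftpc and Sftpb, each well above background on 28 or 29 of the 29 arrays. For Klf15, the sources do not place the probe relative to the deleted stretch. Bright probes were lower relative to dim probes on the 7 KO saline arrays than on the other 22. The mean log2 of bright over dim ran from -0.368 to -0.116 over 2546 genes on the KO saline arrays, and from -0.0836 to 0.286 on the others. The part of this in the comparisons with KO saline lungs was not tested. All adjusted p-values come from limma with Benjamini-Hochberg adjustment over the 15350 genes tested, with 0.05 as the threshold.

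Promoter windows are shown for Cidec and Plin4, which rose after dexamethasone in 3 and 4 of the 4 pairs of groups, and for Adipoq, Cfd, Plin1 and Lep, which passed the test in 1 pair or in none, so that the letters at their starts can be read side by side. Fabp4, which rose in all 4 pairs, is not shown. Each is 300 bases long, reaches 50 bases past the annotated start, is written 5′ to 3′ on the gene's strand and comes from RefSeq's GRCm38.p6 annotation. The motifs searched on both strands were AGAACA (an arm of the glucocorticoid receptor's site, held by 19.0% of the 32851 windows of all genes), the whole palindrome made of that arm and its reverse complement 3 bases apart (0.00913%), the PPARG site made of 2 direct repeats of AGGTCA with 1 base between (0.0396%), and TTGCNNAA (a C/EBP site, 10.8%). The others were CCACCC, a box that KLF factors bind, held by 31.5%, and the TATA box TATAAA, held by 13.6%. Every palindrome also counts as an arm. Capitals mark the matches. The windows of Plin4 (chr17:56109733-56110032, minus strand), Adipoq (chr16:23146286-23146585, plus) and Cfd (chr10:79890603-79890902, plus) held none of these letters, and neither did that of Retn, which is not printed. Lep (chr6:29059971-29060270, plus) held a C/EBP match at -55 and a KLF box, on the other strand, at -103. Cidec had a pair of annotated starts, and the window shown (chr6:113434715-113435014, minus) held a C/EBP match at -198 while the other held none. Plin1 (chr7:79732727-79733026, minus) held C/EBP matches at -187 and -58. A match is a description of letters and not a measured site.
Plin4: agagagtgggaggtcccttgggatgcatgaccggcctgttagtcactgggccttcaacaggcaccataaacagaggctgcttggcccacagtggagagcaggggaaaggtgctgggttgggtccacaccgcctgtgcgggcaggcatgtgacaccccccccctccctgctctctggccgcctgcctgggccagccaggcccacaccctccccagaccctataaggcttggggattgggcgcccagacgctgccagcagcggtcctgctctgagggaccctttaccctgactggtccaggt
Cidec: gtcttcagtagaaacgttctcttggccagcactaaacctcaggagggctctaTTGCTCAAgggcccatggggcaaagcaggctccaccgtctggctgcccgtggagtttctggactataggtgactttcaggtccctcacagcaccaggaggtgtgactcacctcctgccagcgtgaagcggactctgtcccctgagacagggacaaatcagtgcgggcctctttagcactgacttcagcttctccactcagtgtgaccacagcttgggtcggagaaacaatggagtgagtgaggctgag
Adipoq: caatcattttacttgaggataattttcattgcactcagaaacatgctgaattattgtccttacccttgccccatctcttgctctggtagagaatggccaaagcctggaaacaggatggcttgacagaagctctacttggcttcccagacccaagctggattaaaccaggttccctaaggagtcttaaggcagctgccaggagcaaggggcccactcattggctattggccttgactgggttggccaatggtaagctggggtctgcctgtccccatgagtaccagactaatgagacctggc
Cfd: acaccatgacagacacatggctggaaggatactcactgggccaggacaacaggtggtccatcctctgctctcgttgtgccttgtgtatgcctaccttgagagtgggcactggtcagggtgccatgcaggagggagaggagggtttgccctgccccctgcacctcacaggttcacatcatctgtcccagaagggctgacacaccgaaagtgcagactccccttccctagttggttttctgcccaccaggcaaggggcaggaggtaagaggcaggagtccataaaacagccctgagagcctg
Plin1: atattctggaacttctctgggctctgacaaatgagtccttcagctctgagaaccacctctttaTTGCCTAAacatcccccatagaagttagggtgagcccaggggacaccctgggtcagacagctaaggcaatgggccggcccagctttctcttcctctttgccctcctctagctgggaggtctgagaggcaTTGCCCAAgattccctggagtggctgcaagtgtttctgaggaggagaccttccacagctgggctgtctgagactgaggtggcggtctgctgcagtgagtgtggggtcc
Lep: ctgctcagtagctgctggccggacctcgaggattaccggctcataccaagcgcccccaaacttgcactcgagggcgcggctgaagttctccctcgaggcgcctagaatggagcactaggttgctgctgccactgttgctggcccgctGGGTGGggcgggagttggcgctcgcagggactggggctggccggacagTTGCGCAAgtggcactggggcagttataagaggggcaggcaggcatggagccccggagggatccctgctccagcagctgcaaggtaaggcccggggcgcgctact

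After dexamethasone, 3 of the 8 genes were higher in both genotypes, and they were the carrier and the droplet proteins Plin4, Cidec and Fabp4. Averaged over the 4 pairs of groups, Plin4 rose 4.35-fold (2.12 ± 0.144 SE, adjusted p = 1.27e-11), Fabp4 rose 2.47-fold (1.31 ± 0.144 SE, adjusted p = 4.38e-08) and Cidec rose 1.62-fold (0.69 ± 0.079 SE, adjusted p = 7.32e-08). The secreted factors and Plin1 did not pass the test in this average, at 0.54 for Adipoq, 0.66 for Cfd, 0.34 for Retn, 0.85 for Lep, which rests in part on arrays below background, and -0.01 for Plin1. Cfd passed in this average without WT saline 8 h replicate 38 (0.80, adjusted p = 0.0408), KO saline 4 h replicate 41 (0.81, adjusted p = 0.0364) or KO dexamethasone 4 h replicate 59 (0.77, adjusted p = 0.0428), and Lep without KO saline 8 h replicate 48 (1.03, adjusted p = 0.0496). The Lep probe was kept only because it was well above background on 3 of the 4 KO dexamethasone 4 h arrays. Those arrays are part of this average, so the Lep value is not taken as support for a rise. With all arrays, 3 of 8 members rose and 0 fell, where 29.3% of all genes tested rose and 27.9% fell. The median difference was 0.68 over the 8 genes and 0.03 over all genes. In bulk tissue, a change in the number of cells of a type and a change in RNA per cell cannot be told apart.

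**Figure D1:**
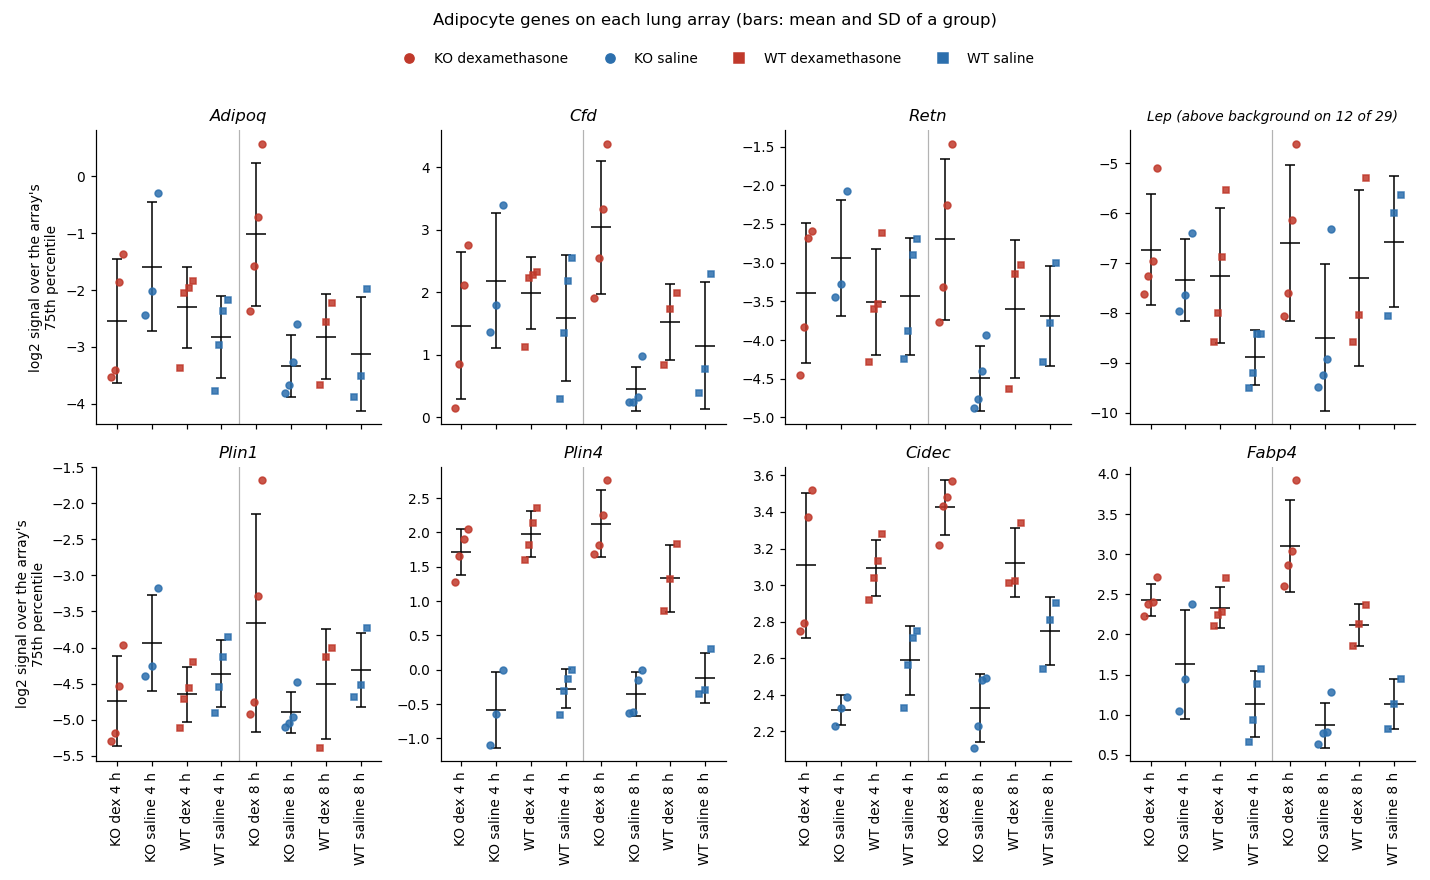
Log2 signal over the array's 75th percentile (vertical axis) of the 8 genes, with a point for each of the 29 arrays by group, dexamethasone in red, saline in blue, circles for KO and squares for WT, and bars for the group mean and SD. Plin4 separates the treatments on every array, whereas Adipoq, Cfd, Retn, Plin1 and Lep scatter within most groups.

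Plin4 gave the clearest separation of the treatments. In KO lungs at 4 h its level was 1.90, 1.65, 1.28 and 2.05 after dexamethasone, against 0.00, -1.10 and -0.65 after saline. WT lungs at 4 h had 2.36, 1.82, 2.14 and 1.60 after dexamethasone, against -0.13, -0.66, -0.31 and 0.00 after saline. The groups do not overlap in either genotype. At 8 h the dexamethasone arrays of KO lungs had 1.68, 2.76, 2.25 and 1.82, against -0.15, -0.63, -0.62 and 0.00 after saline. Those of WT lungs at 8 h had 1.83, 0.85 and 1.32, against -0.30, 0.30 and -0.36 after saline. Every one of the 15 dexamethasone arrays lay above every one of the 14 saline arrays, with 0.85 as the lowest and 0.30 as the highest value on either side. The rise was 4.93-fold in KO lungs at 4 h (2.30 ± 0.294 SE, adjusted p = 1.23e-06) and 4.78-fold in WT lungs at 4 h (2.26 ± 0.272 SE, adjusted p = 5.52e-07). At 8 h it was 5.57-fold in KO lungs (2.48 ± 0.272 SE, adjusted p = 1.88e-07) and 2.74-fold in WT lungs (1.45 ± 0.314 SE, adjusted p = 0.00146).

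Fabp4 was higher after dexamethasone in every pair of groups, by 0.81 to 2.24. Its level in KO lungs at 8 h was 2.86, 3.92, 3.04 and 2.60 after dexamethasone, against 0.77, 0.64, 0.79 and 1.28 after saline, with no overlap and a 4.71-fold rise (2.24 ± 0.272 SE, adjusted p = 7.53e-07). WT lungs at 8 h had 2.37, 1.85 and 2.13 after dexamethasone, against 1.13, 1.45 and 0.82 after saline, and the rise of 0.99 ± 0.314 SE passed the test (adjusted p = 0.0242). Neither pair of groups overlaps. WT lungs at 4 h had 2.11, 2.70, 2.28 and 2.24 after dexamethasone, against 1.38, 0.66, 0.93 and 1.57 after saline, a 2.29-fold rise (adjusted p = 0.00118). KO lungs at 4 h had 2.41, 2.71, 2.38 and 2.23 after dexamethasone, against 2.38, 1.05 and 1.45 after saline. Here the groups overlap through the saline array at 2.38, replicate 41. The rise in KO lungs at 4 h was 0.81 ± 0.294 SE (adjusted p = 0.0299), and it was 1.18 (adjusted p = 0.00059) with replicate 41 and the KO dexamethasone 8 h replicate 62 left out. Leaving out either of the other saline arrays of that group ended the call, at 0.52 without replicate 43 (adjusted p = 0.218) and 0.72 without replicate 44 (adjusted p = 0.104), and so did leaving out dexamethasone replicate 58, at 0.71 (adjusted p = 0.0807). The call in WT lungs at 8 h also ended without saline replicate 37 (0.99, adjusted p = 0.057) or 39 (0.83, adjusted p = 0.0934), or without dexamethasone replicate 54 (0.86, adjusted p = 0.0994) or 56 (0.98, adjusted p = 0.0545). The 3 probes of Fabp4 gave 2.24, 2.20 and 2.32 in KO lungs at 8 h.

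Of these 3 genes Cidec moved least in size, and its arrays were close together within groups. Its level in KO lungs at 8 h was 3.48, 3.57, 3.22 and 3.43 after dexamethasone, against 2.49, 2.48, 2.23 and 2.11 after saline, a 2.14-fold rise (1.10 ± 0.149 SE, adjusted p = 3.28e-06). KO lungs at 4 h had 3.52, 3.37, 2.79 and 2.75 after dexamethasone, against 2.33, 2.39 and 2.23 after saline, with a difference of 0.79 ± 0.161 SE (adjusted p = 0.000346). Neither pair overlaps. WT lungs at 4 h had 2.92, 3.04, 3.13 and 3.28 after dexamethasone, against 2.71, 2.56, 2.33 and 2.75 after saline, with a difference of 0.51 ± 0.149 SE (adjusted p = 0.0094). WT lungs at 8 h had 3.01, 3.34 and 3.02 after dexamethasone, against 2.54, 2.90 and 2.81 after saline. The WT groups at 8 h do not overlap, but the difference of 0.37 ± 0.172 SE did not pass the test (adjusted p = 0.123). Cidec passed there with slide as a fixed term (0.48, adjusted p = 0.0322), slide as a random block (0.43, adjusted p = 0.0329) or array weights (0.48, adjusted p = 0.0255).

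**Figure D2:**
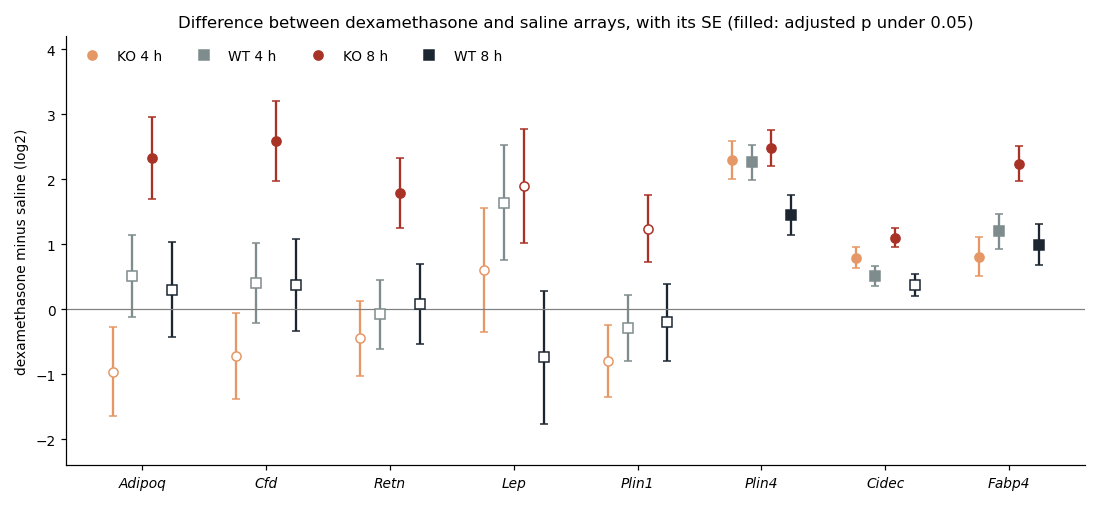
Difference in log2 signal, dexamethasone minus saline, with its SE for the 8 genes in KO 4 h, WT 4 h, KO 8 h and WT 8 h lungs, where filled points passed limma's test at an adjusted p of 0.05. Plin4 is filled in all 4 pairs of groups and Fabp4 too, whereas Adipoq, Cfd and Retn are filled in KO lungs at 8 h.

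Of the secreted factors of fat cells, Adipoq, Cfd and Retn passed the test in KO lungs at 8 h and missed it in the other 3 pairs of groups. Adipoq, the gene of adiponectin, had -1.57, 0.58, -0.71 and -2.37 after dexamethasone in KO lungs at 8 h, against -3.81, -3.68, -3.26 and -2.60 after saline. Each dexamethasone array lay above each saline array, though their own values spanned more than the gap. The difference was 2.32 ± 0.632 SE, or 4.99-fold (adjusted p = 0.00485). Adipoq had -1.37, -3.53, -3.41 and -1.86 after dexamethasone in KO lungs at 4 h, against -0.30, -2.44 and -2.02 after saline, a difference of -0.96 ± 0.683 SE (adjusted p = 0.283). In WT lungs it had -1.97, -1.84, -2.05 and -3.37 after dexamethasone at 4 h, against -2.37, -3.78, -2.96 and -2.17 after saline, and -2.56, -3.67 and -2.23 after dexamethasone at 8 h, against -3.51, -1.98 and -3.88 after saline. These groups overlap, and the differences in WT lungs were 0.51 at 4 h (adjusted p = 0.573) and 0.30 at 8 h (adjusted p = 0.814). The highest Adipoq value stood 22-fold above the lowest of the 29 arrays. Ordered by mean, KO dexamethasone 8 h came highest and KO saline 8 h lowest, and each group overlapped the next in that order.

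Cfd, the gene of adipsin, followed the same arrays. Its level in KO lungs at 8 h was 2.54, 4.38, 3.33 and 1.91 after dexamethasone, against 0.25, 0.25, 0.33 and 0.98 after saline, and the groups do not overlap. The difference was 2.59 ± 0.614 SE, or 6.01-fold (adjusted p = 0.00157). KO lungs at 4 h had 2.75, 0.85, 0.15 and 2.11 after dexamethasone, against 3.40, 1.36 and 1.80 after saline. WT lungs had 2.32, 2.28, 2.23 and 1.13 after 4 h of dexamethasone, against 2.18, 0.29, 1.34 and 2.55 after saline, and 1.73, 0.83 and 1.99 after 8 h of dexamethasone, against 0.77, 2.29 and 0.38 after saline. All 3 of these pairs of groups overlap. The Cfd difference was -0.72 in KO lungs at 4 h (adjusted p = 0.418), and in WT lungs it was 0.40 at 4 h (adjusted p = 0.658) and 0.37 at 8 h (adjusted p = 0.767). Retn, the gene of resistin, had -3.31, -1.46, -2.26 and -3.77 after dexamethasone in KO lungs at 8 h, against -4.88, -4.76, -4.40 and -3.94 after saline. It rose there by 1.79 ± 0.534 SE (adjusted p = 0.00894), with its other probe at 1.96. KO lungs at 4 h had -2.59, -3.83, -4.45 and -2.68 after dexamethasone, against -2.08, -3.45 and -3.28 after saline. WT lungs had -2.62, -3.60, -3.54 and -4.29 after 4 h of dexamethasone, against -2.90, -4.25, -3.89 and -2.69 after saline, and -3.03, -4.63 and -3.15 after 8 h of dexamethasone, against -3.78, -3.0 and -4.28 after saline. These groups overlap, and Retn differed by -0.45 to 0.08 in the 3 pairs, none of which passed the test.

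In the fit described above, Plin1 and Lep did not pass the test in any pair of groups, but both passed in KO lungs at 8 h under some alternatives. Plin1 had -4.75, -1.68, -3.29 and -4.92 after dexamethasone in KO lungs at 8 h, against -5.10, -4.96, -5.05 and -4.48 after saline, so the groups overlap, and the difference was 1.24 ± 0.514 SE (adjusted p = 0.0559). Plin1 passed the test there without dexamethasone replicate 61 (1.60, adjusted p = 0.018) or 64 (1.66, adjusted p = 0.0139), and with array weights (1.44, adjusted p = 0.00363), normexp and quantile normalization (0.83, adjusted p = 0.0326), the deposited table (1.09, adjusted p = 0.0384), probes filtered on all arrays (1.24, adjusted p = 0.0469) or trend and robust variances (1.24, adjusted p = 0.0477). The other pairs overlap as well, with -5.30 to -3.96 in KO dexamethasone against -4.40 to -3.18 in KO saline lungs at 4 h, -5.12 to -4.20 in WT dexamethasone against -4.91 to -3.86 in WT saline lungs at 4 h, and -5.39 to -4.01 in WT dexamethasone against -4.68 to -3.73 in WT saline lungs at 8 h. Lep, the gene of leptin, was well above background on 12 of the 29 arrays. KO dexamethasone 4 h was the only group in which its probe met the filter of at least 3 arrays. That group had -6.95, -7.61, -7.26 and -5.10, of which all but -7.26 were well above background. The KO saline arrays at 4 h had -6.40, -7.64 and -7.96, of which -6.40 was. Lep differed there by 0.60 (adjusted p = 0.66). In KO lungs at 8 h it had -7.60, -4.60, -6.13 and -8.06 after dexamethasone, of which -4.60 and -6.13 were well above background, against -9.49, -8.92, -9.25 and -6.31 after saline, of which -6.31 was. Its difference there was 1.90 ± 0.88 SE (adjusted p = 0.0866). In WT lungs at 4 h no saline array measured Lep above background, the level there is only a bound, and no fold is given (adjusted p = 0.155). WT lungs at 8 h had -8.05, -8.58 and -5.29 after dexamethasone, of which -5.29 was above background, against -5.64, -8.07 and -5.99 after saline, of which -5.64 and -5.99 were. Lep in KO lungs at 8 h passed without saline replicate 48 (2.62, adjusted p = 0.0206) or dexamethasone replicate 64 (2.38, adjusted p = 0.0468), and with slide as a fixed term (1.84, adjusted p = 0.000754), slide as a random block (1.86, adjusted p = 0.00848) or array weights (2.29, adjusted p = 0.00788). In WT lungs at 4 h Lep passed with slide as a fixed term (adjusted p = 0.0157).

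In each pair of groups the calls were as follows. Among KO lungs at 8 h, 6 of the 8 genes rose and 0 fell, where 25.8% of all genes rose and 17.2% fell, and the median difference was 2.07 over the members and 0.11 over all genes. Among KO lungs at 4 h, 3 rose and 0 fell, where 25.0% of all genes rose and 17.6% fell. Among WT lungs at 4 h, 3 rose and 0 fell, where 14.3% rose and 22.3% fell. Among WT lungs at 8 h, 2 rose and 0 fell, where 9.32% rose and 14.3% fell. The median over the members was 0.07 in KO lungs at 4 h, 0.51 in WT lungs at 4 h and 0.34 in WT lungs at 8 h.

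No difference between KO and WT lungs passed limma's test in any of the 8 genes. Over the 4 comparisons of genotype, 0 members were called, where 25.0% of all genes differed at 4 h of saline, 13.8% at 8 h of saline, 0.971% at 4 h of dexamethasone and 4.95% at 8 h of dexamethasone. At an unadjusted p under 0.05 these comparisons held 0, 1, 0 and 4 members. Averaged over the 4, where 19.4% of all genes were called, 0 members were called and 1 had an unadjusted p under 0.05. After 8 h of dexamethasone, Fabp4 was 0.99 higher in KO than in WT lungs (adjusted p = 0.0511), Plin4 was 0.79 higher (adjusted p = 0.106) and Adipoq was 1.80 higher (adjusted p = 0.114). The Fabp4 difference lay at the threshold and passed it without any of WT saline 4 h replicate 34, WT saline 8 h replicate 38, KO saline 4 h replicate 41 or 43, WT dexamethasone 4 h replicate 50 and KO dexamethasone 8 h replicate 64, with adjusted p between 0.0289 and 0.0497. Only replicate 64 belongs to a group compared here. Leaving out the others changes the spread shared by the groups and the adjustment, but not the difference. In saline lungs at 8 h, Cidec was -0.42 in KO minus WT (adjusted p = 0.0791) and Lep -1.93 (adjusted p = 0.171).

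The dexamethasone response itself was not shown to differ between KO and WT lungs. At 8 h the KO response minus the WT response was 2.01 ± 0.966 SE for Adipoq (adjusted p = 0.199), 2.22 for Cfd (adjusted p = 0.144), 1.71 for Retn (adjusted p = 0.196), 1.44 for Plin1 (adjusted p = 0.261) and 2.64 for Lep (adjusted p = 0.228). It was 1.02 for Plin4 (adjusted p = 0.128), 1.25 for Fabp4 (adjusted p = 0.0692) and 0.72 for Cidec (adjusted p = 0.0571). All 8 lay above 0 and 0 passed the test, with 6 at an unadjusted p under 0.05, where 6.52% of all genes passed. At 4 h, 0 passed and 0 had an unadjusted p under 0.05, where 17.0% of all genes passed. Fabp4 passed at 8 h without KO saline 4 h replicate 41 (adjusted p = 0.0454), and Cidec without KO saline 8 h replicate 45 (0.78, adjusted p = 0.0485) or without KO dexamethasone 4 h replicate 57 (adjusted p = 0.0373), 59 (adjusted p = 0.0479) or 60 (adjusted p = 0.0415). Arrays of 4 h are not part of the 8 h comparison, so leaving them out changes the shared spread and the adjustment but not the difference. The rises of Adipoq, Cfd and Retn in KO lungs at 8 h are not shown to be particular to KO lungs.

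No difference between times passed the test. Between 8 and 4 h, 0 members were called in KO dexamethasone (7.1% of all genes called), KO saline (1.07%), WT dexamethasone (12.3%) and WT saline lungs (1.27%), with 5, 4, 1 and 1 members at an unadjusted p under 0.05. In KO saline lungs the 8 h minus 4 h difference was -1.75 for Adipoq (adjusted p = 0.316), -1.73 for Cfd (adjusted p = 0.3) and -1.56 for Retn (adjusted p = 0.278). In KO dexamethasone lungs it was 1.53 for Adipoq (adjusted p = 0.163), 1.58 for Cfd (adjusted p = 0.136) and 0.68 for Fabp4 (adjusted p = 0.151). The signs are opposite in the treatments, and none of these values passed.

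KO dexamethasone 8 h replicate 62 was the highest of the 29 arrays for all 8 genes. KO saline 4 h replicate 41, on the same slide, ranked 2 for Adipoq, Cfd, Retn and Plin1, close to KO dexamethasone 8 h replicate 63 for Cfd (3.40 and 3.33). It ranked 9 for Fabp4 and Lep, 19 for Plin4 and 25 for Cidec. The same slide held WT saline 8 h replicate 37, which ranked 23 for Adipoq and Cfd, 18 for Retn and 14 for Plin1. It also held WT dexamethasone 4 h replicate 49, which ranked 8 for Adipoq, 7 for Cfd, 5 for Retn and 10 for Plin1. Without replicates 41 and 62, an alternative chosen after the data were seen, Adipoq in KO lungs at 8 h differed by 1.79 (adjusted p = 0.02), Cfd by 2.14 (adjusted p = 0.0069) and Retn by 1.38 (adjusted p = 0.0419). Plin4 then differed by 2.27 (adjusted p = 8e-07), Fabp4 by 1.97 (adjusted p = 4.79e-07) and Cidec by 1.05 (adjusted p = 4.37e-05), and 6 members were still called, where 23.9% of all genes rose. The uncalled Plin1 and Lep moved to 0.58 and 1.23. The slides held few arrays of matching groups. On the slides with 1 KO dexamethasone and 1 KO saline array of 8 h, slides 3 and 7, Adipoq differed by 1.44 and 2.97, Cfd by 1.66 and 3.08, Retn by 1.11 and 2.50 and Plin4 by 1.97 and 2.88. On slide 1, with 1 WT dexamethasone and 1 WT saline array of 8 h, Adipoq differed by 1.65, Cfd by 1.60, Retn by 1.13 and Plin4 by 1.68. On slide 4, with 1 KO dexamethasone and 1 KO saline array of 4 h, Adipoq differed by -1.39, Cfd by -1.65, Retn by -1.17 and Plin4 by 1.93. WT lungs at 4 h on slides 3 and 7 gave 0.33 and 0.91 for Adipoq and 1.82 and 2.45 for Plin4. With slide as a fixed term Adipoq in KO lungs at 8 h differed by 1.87 (adjusted p = 0.0266).

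Within groups, the fat cell genes varied more than most genes. The residual SD, the spread of arrays around their group means, was 0.928 for Adipoq, 0.901 for Cfd, 0.783 for Retn, 0.753 for Plin1 and 1.29 for Lep, where the median over all genes was 0.173. It was 0.397 for Plin4 and 0.397 for Fabp4, and 0.215 for Cidec. Among genes of like mean level, 1.28% of 1168 had a larger residual SD than Adipoq and 0.21% of 1908 a larger one than Cfd. These were 17.5% for Plin1 and 24.7% for Lep, whose levels were low.

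Most of these genes went up and down together from array to array within a group. Across the 29 arrays, with group means removed, the deviation of Adipoq correlated at 0.97 with that of Cfd, 0.93 with Retn, 0.91 with Plin1, 0.83 with Plin4, 0.73 with Fabp4 and 0.50 with Lep, and at -0.01 with Cidec. The points share amplification, hybridisation and scaling, and the values are descriptions. Without replicates 41 and 62 the correlations with Adipoq were 0.96 for Cfd, 0.91 for Retn, 0.91 for Plin1, 0.75 for Plin4, 0.56 for Fabp4, 0.35 for Lep and -0.11 for Cidec. With slide means also removed, Plin4 had 0.80 and Fabp4 0.78. So Plin4 and Fabp4 followed Adipoq within groups and dexamethasone between groups, whereas Cidec did not follow Adipoq within groups.

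**Figure D3:**
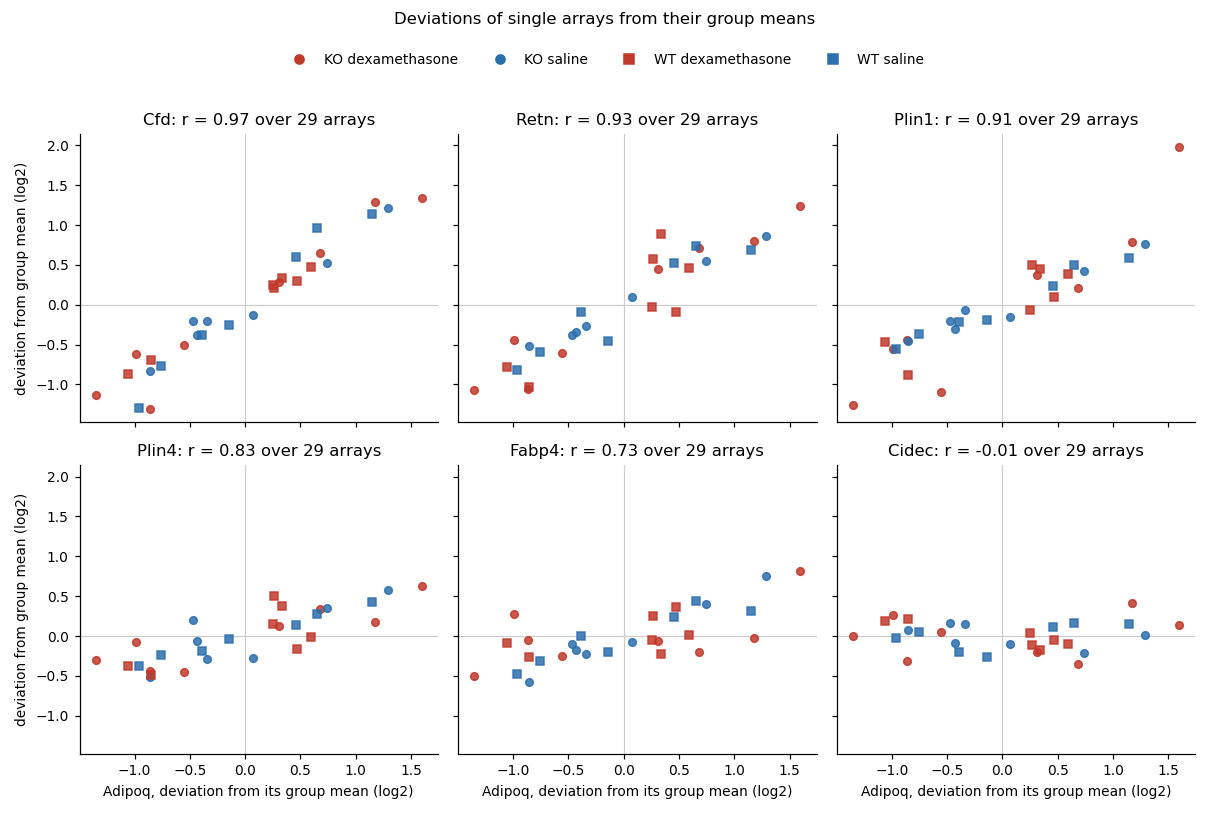
Deviation of each array from its group mean, in log2 units, for Adipoq (horizontal axis) against Cfd, Retn, Plin1, Plin4, Fabp4 and Cidec (vertical axes), with Pearson's r over the 29 arrays. The points lie close to a line for Cfd (0.97) and show no slope for Cidec (-0.01).

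The genes most like Adipoq in this measure, over 15349 other genes, were Car3 (0.98), Cfd (0.97), Retn (0.93), Plin1 (0.91), Tmem45b (0.88), Gtsf1l (0.84), Plin4 (0.83), Efcab1 (0.83), Ephx2 (0.82) and Mst1 (0.82). Car3, a carbonic anhydrase abundant in fat and muscle, had 0.37, 2.71, 1.66 and -0.42 after dexamethasone in KO lungs at 8 h, against -1.58, -1.67, -1.29 and -0.74 after saline. It differed by 2.40 ± 0.671 SE (adjusted p = 0.00575). Of the 10 genes listed, 4 are members.

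Set against Adipoq on the same array, Plin4 was still higher after dexamethasone in the mean. The log2 ratio of Plin4 to Adipoq averaged 4.26 after dexamethasone and 1.0 after saline in KO lungs at 4 h, and 4.29 after dexamethasone and 2.55 after saline in WT lungs at 4 h. At 8 h it averaged 3.14 after dexamethasone and 2.98 after saline in KO lungs, and 4.15 after dexamethasone and 3.0 after saline in WT lungs. The mean difference over the 4 pairs was 1.58 ± 0.37 SE (adjusted p = 0.00064), positive in 4 of 4, where 0.573% of all genes' ratios to Adipoq rose. A permutation of treatment within genotype and time gave p = 8e-05 (two-sided, 100000 resamples). Each ratio carries the spread of Adipoq itself, which limma's fit shares over all genes. The ratio in KO lungs at 8 h differed by 0.16. In KO lungs at 4 h it rose by 3.26 (adjusted p = 0.0033), where 1.39% of all ratios rose and 0.0195% fell, and without replicate 41 it was 2.91 (adjusted p = 0.104).

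The other ratios to Adipoq did not pass limma's test. Of the 7 ratios computed, the mean difference was 0.76 for Fabp4 (adjusted p = 0.159, permutation p = 0.0127), 0.15 for Cidec (adjusted p = 0.752, permutation p = 0.712) and 0.11 for Cfd (adjusted p = 0.808, permutation p = 0.164). It was -0.21 for Retn (adjusted p = 0.661, permutation p = 0.176), 0.31 for Lep (adjusted p = 0.525, permutation p = 0.536) and -0.56 for Plin1 (adjusted p = 0.288, permutation p = 0.00361). The permutation p-values are not adjusted for the 7 ratios. In this mean 10.8% of all genes' ratios fell.

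**Figure D4:**
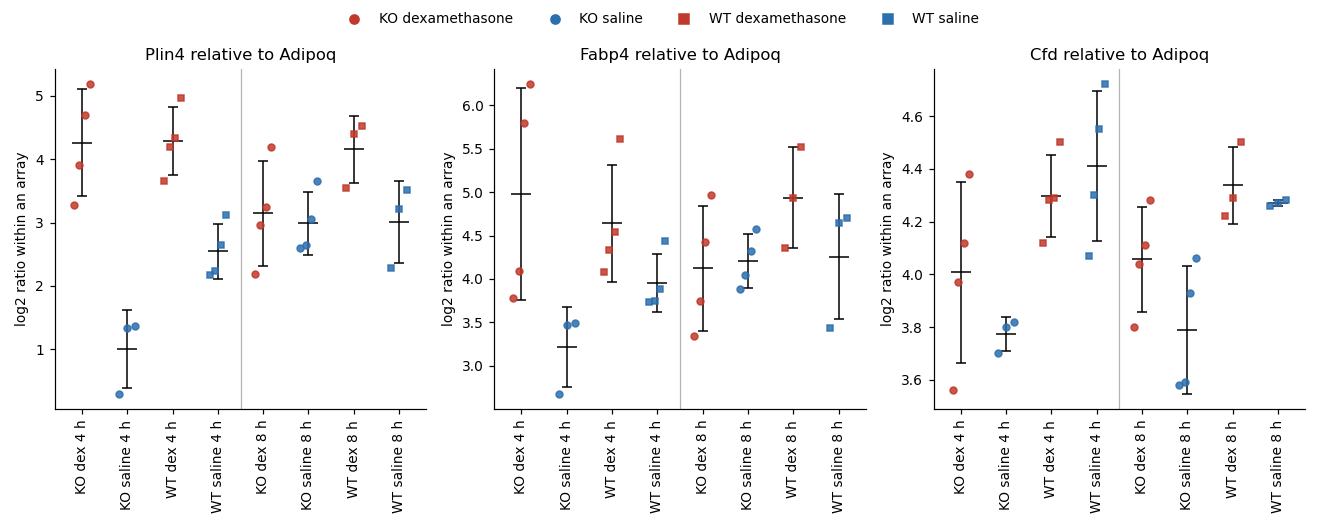
Log2 ratio of Plin4, Fabp4 and Cfd to Adipoq on each array (vertical axes, which differ in range between panels) by group, with means and SDs. The Plin4 ratio averages 4.26 in KO dexamethasone and 1.0 in KO saline lungs at 4 h, and 3.14 in KO dexamethasone and 2.98 in KO saline lungs at 8 h.

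Other genes of fat storage moved in both directions after dexamethasone, averaged over the 4 pairs. The counts are to be read against the 29.3% of all genes that rose and the 27.9% that fell in this average. Of 30 genes of fat storage and lipolysis, 13 rose and 6 fell (median 0.09), and Lpl, the lipase of circulating triglyceride, rose by 1.75 (adjusted p = 1.26e-15), Lpin1, a phosphatidate phosphatase, by 1.76 and Pnpla2, the lipase of the droplet, by 1.30, while G0s2, which inhibits that lipase, fell by 1.08. Of 13 other genes used as markers of white fat cells, some of which other tissues make too, 3 rose and 2 fell (median 0.21), and Orm1, an acute phase protein also made by liver, rose by 2.31 and Trarg1, a regulator of glucose transporter traffic, by 1.27, whereas the amino acid transporter Slc7a10 fell by 1.66 and Sncg by 0.91. Of 15 transcription factors of fat cell formation, 7 rose and 3 fell, with Klf15 itself at 1.40, Cebpd at 0.95 and Klf9 at 0.71. The Klf15 probe rose in KO lungs too, by 1.93 at 4 h (adjusted p = 3.01e-07) and 0.93 at 8 h (adjusted p = 0.000846). Of 13 adipokines and receptors, 9 rose and 1 fell, with Angptl4, an inhibitor of lipoprotein lipase, at 1.68, Nampt at 0.98 and Adipor2, an adiponectin receptor, at 0.62, and with Apln at -2.47. Of 11 genes of gluconeogenesis, glycerol handling and their control, 7 rose and 1 fell, with Pcx, pyruvate carboxylase, at 0.67. That list also holds genes outside the pathway, among them Tat, an enzyme of tyrosine breakdown, at 2.56, and Pdk4, which the glucocorticoid list holds too. Of 6 other fatty acid binding proteins, 1 rose and 1 fell, with Fabp12 at 0.33 and Fabp1 at -1.92. All 12 genes tested that are known to be induced by glucocorticoid rose (median 1.52), with Pdk4 at 2.80 and Glul at 1.68.

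Genes of the organs beside the lung were read on the same arrays. In KO lungs at 8 h, where Adipoq, Cfd and Retn rose, 5 of 12 heart genes rose and 0 fell (median 1.74), among them Tnnt2, cardiac troponin T, by 1.89 and Sln, sarcolipin of the atrium, by 2.86. Of 12 genes of brown fat cells, 7 rose and 1 fell there, and of the 13 white fat cell markers 5 rose and 2 fell, where 25.8% of all genes rose and 17.2% fell. Of 12 skeletal muscle genes, 1 rose and 1 fell (median 0.54), of 5 thymus genes 0 rose or fell (median 0.09), and of 7 genes of thyroid, esophagus and liver 4 rose and 0 fell (median 0.74). The summed linear level of the heart genes, each as a multiple of the 75th percentile, ran from 37.8 to 82.2 on the KO dexamethasone 8 h arrays, against 6.26 to 40.0 on the KO saline 8 h arrays, and the highest 3 of the 29 arrays were replicate 62 at 82.2, replicate 41 at 78.3 and KO dexamethasone 8 h replicate 63 at 76.4. In the other groups the heart sums ran from 18.4 to 51.4 in KO dexamethasone and 22.4 to 78.3 in KO saline lungs at 4 h, 22.9 to 53.9 in WT dexamethasone and 13.3 to 48.3 in WT saline lungs at 4 h, and 9.32 to 39.1 in WT dexamethasone and 7.91 to 44.2 in WT saline lungs at 8 h. For brown fat cells the sums ran from 12.6 to 19.1 on the KO dexamethasone 8 h arrays, against 7.69 to 12.8 on the KO saline 8 h arrays, and for white fat cells from 7.83 to 13.5 on the KO dexamethasone 8 h arrays, against 6.72 to 7.78 on the KO saline 8 h arrays. In WT lungs at 8 h the white fat sums ran the other way, from 5.06 to 5.62 after dexamethasone, against 6.33 to 9.49 after saline. Of the 13 genes in that sum 2 rose and 2 fell there, where 9.32% of all genes rose and 14.3% fell. Their correlations with Adipoq within groups ran from -0.25 to 0.98, so the sum need not follow the amount of fat. Single genes there went both ways, with Adipoq at 0.30, Cfd at 0.37, Car3 at 0.27, Retn at 0.08, Plin1 at -0.20 and Lep at -0.74. Only Car3 among them is in the sum. None of these passed the test. The brown fat sums of WT lungs at 8 h overlapped, from 7.58 to 11.9 after dexamethasone, against 7.68 to 14.7 after saline. At 4 h the white fat sums ran from 8.02 to 8.95 in KO dexamethasone and 7.92 to 10.2 in KO saline lungs, and from 6.57 to 8.30 in WT dexamethasone and 7.31 to 9.86 in WT saline lungs. The brown fat sums at 4 h ran from 9.72 to 13 in KO dexamethasone and 9.03 to 17.5 in KO saline lungs, and from 9.96 to 14.3 in WT dexamethasone and 9.30 to 14.2 in WT saline lungs. Without replicates 41 and 62, 2 of 12 heart genes (16.7%), 5 of 12 brown fat cell genes (41.7%) and 3 of 13 white fat cell markers (23.1%) rose in KO lungs at 8 h, where 23.9% of all genes rose. The medians without these arrays were 1.58 for heart, 0.67 for brown fat and 0.47 for white fat, where that of all genes was 0.1. With all arrays they were 1.74, 0.75 and 0.57. Averaged over the 4 pairs, where 29.3% of all genes rose and 27.9% fell, 0 heart genes rose or fell. Of 12 brown fat cell genes 4 rose, Dio2 at 2.77 and Ebf2 at 1.15 among them, and 1 fell, with a median of 0.20. The part of these tissues in the rises of Adipoq, Cfd and Retn was not tested.

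Across arrays within groups, the heart genes correlated with Adipoq at a median of 0.59 (11 of 12 over 0.5), the brown fat cell genes at 0.58 (7 of 12), the skeletal muscle genes at 0.50 (6 of 12) and the white fat cell genes at 0.34 (6 of 13), where the median over all genes was 0.04 and 719 of 15349 lay over 0.5. The brown fat cell genes ran from -0.18 for Pank1 to 0.74 for Slc27a2. Among them, Ucp1 had 0.26, Prdm16 -0.06 and Cox8b, which heart and muscle make too, 0.70. Which tissue gave the brown fat median was not tested. The genes induced by glucocorticoid had a median of 0.01, with 0 of 12 over 0.5. Lung capillary endothelium had -0.07, lung epithelium -0.14, mesothelium, the cell layer over the lung, -0.21 and alveolar macrophages -0.27. Ucp1, the uncoupling protein of brown fat, was well above background on 25 of 29 arrays, Elovl3 on 2, Otop1 on 2 and Zic1 on 0, and each of the other 11 brown fat cell genes on all 29. Of the 13 white fat cell markers, Adig was so on 10 arrays, Aqp7 on 14 and Acvr1c on 18, and each of the other 10 on all 29.

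**Figure D5:**
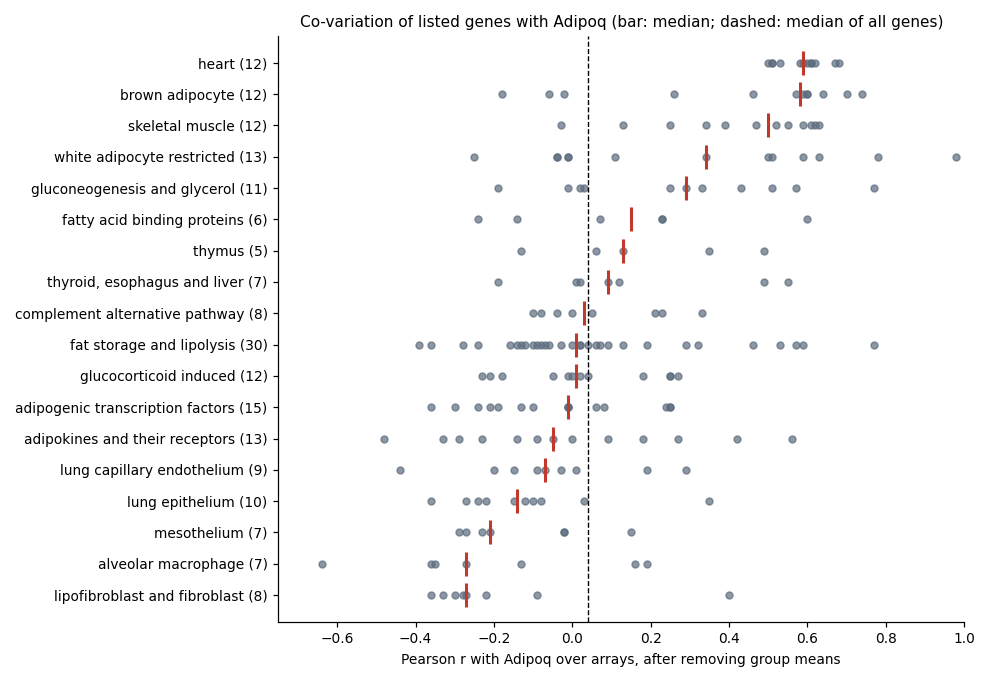
Pearson's r between each listed gene and Adipoq over the 29 arrays with group means removed (horizontal axis), by gene list, with a red bar for the list's median and a dashed line for the median of all genes, 0.04. Heart (0.59) and brown fat cell (0.58) genes lie highest, and the genes induced by glucocorticoid lie at 0.01.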

How the data were processed

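Lung RNA from 29 samples was hybridised to single-colour Agilent arrays. The deposited scanner files hold the processed signal intensity of each spot, background-subtracted by Feature Extraction, version 10.7.3.1 per the file headers and 10.6 per the submitters' processing notes. The authors' deposited value table holds log2 values, with no stated normalization, and served as an alternative.

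Control spots and outlier flags were left out and spots of a probe averaged. Levels on the log2 scale, less each array's own 75th percentile, were tested with limma 3.58.1 (R 4.3.3) over 15350 genes, with the 8 groups in 1 model, Benjamini-Hochberg adjustment and a threshold of 0.05. Probes were matched to RefSeq by accession (24844 of 41174 to 1 gene, 16330 to none), and 33931 probes well above background in at least 3 arrays of a group were kept. Array number limits precision. The named genes were the members, the nearest by correlation and, in each list, those with the lowest adjusted p in the mean dexamethasone or genotype difference. Genes, lists and named genes were chosen with earlier results of these data known. Alternatives covered normalization, background, filters, slide, weights and left-out arrays.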

Additional observations from a re-analysis of the deposited data

Results flagged for a closer look

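In groups of 4 arrays, a value far from the other 3 was looked for in the 8 genes. This made 40 sets of a gene and a group, of which chance alone marks about 1 in 20. All values marked are given here, and those of Adipoq and Cfd are not separate, since these genes correlated at 0.97 within groups. Adipoq was lowest on WT dexamethasone 4 h replicate 52, at -3.37, where the other arrays of the group had -2.05 to -1.84. Cfd was lowest on the same array, at 1.13, where the others had 2.23 to 2.32. Without that array the dexamethasone difference in WT lungs at 4 h was 0.87 for Adipoq (adjusted p = 0.36) and 0.69 for Cfd (adjusted p = 0.47). Cfd was also highest on KO saline 8 h replicate 48, at 0.98, where the others had 0.25 to 0.33.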

How the results depend on the processing

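Over 43 alternatives, the calls of Adipoq (1.79 to 2.77), Cfd (2.14 to 2.96), Retn (1.15 to 2.15), Plin4 (2.27 to 2.67), Fabp4 (1.97 to 2.41) and Cidec (0.92 to 1.17) in KO lungs at 8 h held in each. Of 6662 values, 14 lost a call, 61 gained one and 0 called values changed sign. The Cidec call in WT lungs at 4 h ended under median scaling (0.41, adjusted p = 0.0986). The Fabp4 call in KO lungs at 4 h ended under quantile normalization (0.67), normexp with quantile (0.65), slide as a fixed term (0.77), the deposited table (0.66) and a fit of those groups alone (0.81).

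Members called higher after dexamethasone were 5 in the mean with slide as a random block or array weights, and 4 with slide fixed or quantile normalization, Lep being the gain. In WT lungs at 8 h they were 1 to 2 with an array left out and 3, with Cidec gained, with slide fixed, slide random or array weights. In KO lungs at 8 h they were 7 with slide fixed or slide random (Lep gained), with normexp and quantile, the filter on all arrays, trend and robust variances or the deposited table (Plin1 gained), and 8 with array weights. For genotype, 1 was lower in saline lungs at 8 h with slide fixed, slide random or array weights. After 8 h of dexamethasone 1 was higher with probes filtered on all arrays or with trend and robust variances, 3 with array weights and 0 to 1 with an array left out. In the mean over groups 1 was higher with slide random. The KO response exceeded the WT response at 8 h for 1 with the filter on all arrays or trend and robust variances, 3 with array weights and 0 to 1 with an array left out. With array weights 1 was higher and 1 lower between times in WT saline and WT dexamethasone lungs, and 4 lower in KO saline lungs. Ratios to Adipoq called in KO lungs were 0 to 1 higher at 4 h with an array left out, and 1 lower at 8 h under quantile normalization or the deposited table and 0 to 1 with an array left out.

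No paired analysis was possible because the replicate numbers of the labels do not recur across groups. Normexp was run on the median signal. Lep lay below background on most arrays, so its size is poorly measured.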

Other observations

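Among the genes ranked below the 10 nearest to Adipoq within groups, chosen here after their values were seen, were Mrap, an accessory protein of melanocortin receptors made in fat cells, Bves, a membrane protein of heart and muscle, and Ppp1r3a, a glycogen-targeting subunit of muscle. The same stretch held genes of surface epithelia, Krt15 (0.79), Reg3g (0.79) and Calml3 (0.77), of which Reg3g encodes a secreted lectin.

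The members had different neighbours. Plin4 was nearest to Cox8b (0.89), a cytochrome oxidase subunit of heart, muscle and brown fat, and Ephx2 (0.89). Fabp4 was nearest to Ephx2 (0.87), an epoxide hydrolase, and Ndrg4 (0.85), and next the water channel Aqp3 had 0.80, or 0.59 without replicates 41 and 62. Cidec was nearest to Nisch (0.82) and Pcnx2 (0.82). Lep, low on most arrays, was nearest to Mrgprg (0.93) and Mmel1 (0.93), neither of which was among the 10 nearest to Adipoq.

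In lung capillary endothelium, 7 of 9 genes fell and 2 rose in the mean over the 4 pairs, where 27.9% of all genes fell and 29.3% rose, among them Tek, an angiopoietin receptor, at -0.98 and Pecam1 at -0.69. In lung epithelium 6 of 10 rose and 2 fell.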
